A study of Mus musculus with 2 samples.

Results

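The genes examined were Glycam1, Madcam1, Chst4, Chst2, Fut7, Gcnt1, Sele, Selp, Vcam1 and Icam1, 10 in all. They encode ligands that high endothelial venules (HEVs) present to lymphocytes, enzymes that build the sugars of those ligands, the endothelial selectins, and the adhesion molecules of activated vessel walls. Members were chosen by gene symbol, and 10 of 10 were found among the 24346 symbols listed. RNA-seq had been performed on the entire omentum of mice 5 days after injection of diphtheria toxin (DT). One group was wild-type (WT) and the other was Postn-DTR, in which the DT receptor is inserted into 1 of the Postn copies of C57BL/6 mice, which makes Postn-expressing cells sensitive to DT. Both groups received DT. The promoter was used to target Aldh1a2+ fibroblastic reticular cells (FRCs) of milky spots, the lymphoid clusters of the omentum, but it is also active in fibroblasts of other organs. There was 1 library per genotype, and neither the number of mice behind a library nor their age is given in the sources used here. No spread between replicates could therefore be measured, no test between the genotypes was possible, and no difference below has a replicate check within these data.

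Lymphocytes leave the blood at HEVs in steps. They first roll, when the lymphocyte binds sulfated and fucosylated sugars on mucin-like proteins of the HEV, collectively called peripheral node addressin. Integrins of the lymphocyte then bind adhesion molecules of the immunoglobulin family and arrest the cell. Inflamed vessels use the endothelial selectins for rolling in the same way. HEVs of the omentum, a fatty apron over the gut, lie inside milky spots, so these genes are a small part of a whole-tissue library. Whole tissue does not show which cells a transcript came from, and fewer cells of a type cannot be told apart from less RNA per cell.

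The promoters of a few genes are shown first, because the largest differences among these genes were those of Glycam1 and Selp. Sele is shown as a relative of Selp, and Madcam1 as the other HEV ligand. Each is the stretch of 250 bases before the RefSeq start, 5′ to 3′ on the gene's own strand (GRCm38.p6). RefSeq promoters were found for 9 of the 10 genes, and Vcam1 was not matched. Capitals mark letters that match 1 of 3 patterns on either strand. These were GGNNTTTCC for 1 form of the NF-kB site, TGANTCA for AP-1 and TATAAA for the TATA box. These letters were chosen after the promoters had been read.
Glycam1 (chr15:103565082-103565331, minus strand): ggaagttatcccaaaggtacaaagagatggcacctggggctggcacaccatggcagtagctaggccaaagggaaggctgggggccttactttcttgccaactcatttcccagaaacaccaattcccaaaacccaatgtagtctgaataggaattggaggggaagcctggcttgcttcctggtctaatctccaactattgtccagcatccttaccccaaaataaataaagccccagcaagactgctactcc
Madcam1 (chr10:79664309-79664558, plus strand): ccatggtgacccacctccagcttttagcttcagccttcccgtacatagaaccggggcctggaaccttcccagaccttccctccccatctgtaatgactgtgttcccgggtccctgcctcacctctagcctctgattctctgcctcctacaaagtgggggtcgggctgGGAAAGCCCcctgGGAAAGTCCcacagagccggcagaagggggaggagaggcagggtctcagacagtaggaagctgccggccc
Selp (chr1:164115014-164115263, plus strand): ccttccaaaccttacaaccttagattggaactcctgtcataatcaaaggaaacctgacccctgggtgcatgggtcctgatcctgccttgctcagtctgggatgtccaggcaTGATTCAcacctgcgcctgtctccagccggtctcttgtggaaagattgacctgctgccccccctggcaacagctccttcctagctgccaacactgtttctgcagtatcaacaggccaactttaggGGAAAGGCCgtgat
Sele (chr1:164047984-164048233, plus strand): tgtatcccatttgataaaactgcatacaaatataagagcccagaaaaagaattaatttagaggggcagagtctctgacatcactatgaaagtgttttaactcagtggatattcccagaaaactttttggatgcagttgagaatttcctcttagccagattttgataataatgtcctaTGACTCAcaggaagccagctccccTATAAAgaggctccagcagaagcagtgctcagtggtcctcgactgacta

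The NF-kB letters were found in the windows of Madcam1, Icam1 and Selp, 3 of the 12 windows of the set, and in 4.93% of 32851 RefSeq windows of this length. They started 83 and 70 bases before the start of Madcam1, 153 and 84 bases before that of Icam1 and 14 bases before that of Selp, and no matches overlapped. The AP-1 letters were found in the windows of Sele, Selp and Chst4, at 73, 139 and 59 bases before the start, and in 6.75% of all windows. The TATA letters were present for Sele, 49 bases before the start, and in 1 of the Gcnt1 windows, against 12.4% of all windows. The Glycam1 window matched none of the 3 patterns. A match is a description of letters and was not tested as a binding site. Because the letters were chosen after these promoters were read, the counts cannot show that a pattern is more frequent in this set. The 12 windows came from 9 genes, and other forms of a site were not marked.

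Levels are given as FPKM (fragments per kilobase of transcript, relative to the fragments mapped) in the tables the authors deposited. The denominators of the FPKM were recovered from the steps between low values. They were about 23.3 M and 24.1 M fragments (M, megafragments) in WT and Postn-DTR, and that of Postn-DTR was 1.03 times that of WT. How FPKM were scaled between the libraries is not given in the sources used here, so these may not be the numbers of mapped fragments. Each FPKM could thereby be turned into an approximate number of reads. The 95% intervals below were computed from those read numbers, cover counting error only, and say nothing of the spread between mice. Change means the difference of log2(FPKM + 1), Postn-DTR minus WT, and a gene was compared if its mean FPKM over both libraries was at least 1. On this scale low genes appear to differ less than they do. The targeted gene, Postn, was at 58.3 in the library labelled WT and at 16.2 in the library labelled Postn-DTR, the direction the labels call for. The sum over all symbols was 542190 in WT, against 671882 in Postn-DTR.

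The 10 genes did not differ in a single direction. Glycam1, an HEV mucin, was 13.7-fold lower in Postn-DTR, and Fut7, which fucosylates selectin ligands, was 4.14-fold lower. Selp, which encodes P-selectin, was 5.18-fold higher, where 5.04% of all genes were at least 2-fold higher and 5.20% at least 2-fold lower by the FPKM ratio. Vcam1, Icam1, Gcnt1 and Chst4 were within 1.5-fold between the libraries. Of the 10 genes 9 were compared, and Sele lay under the minimum. On the log2(FPKM + 1) scale 1 of the 9, Glycam1, was at least 2-fold lower, against 3.12% of all 13127 genes compared, and 1, Selp, was at least 2-fold higher, against 3.88%. Higher genes made up 55.4% of all changed genes. This became 28.6% when 25 pancreatic acinar genes (pancreatic genes below) were removed and both libraries were scaled to the same total. Together these steps, which were not run apart, shifted the median of all genes by -0.30. The median change of the 9 genes was -0.09, beside 0.02 for all genes compared, and 5 of them were below 0, where 48.1% of all genes were. The middle of the genes, from the 5th to the 95th percentile, lay between -0.79 and 0.87.

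**Figure D1:**
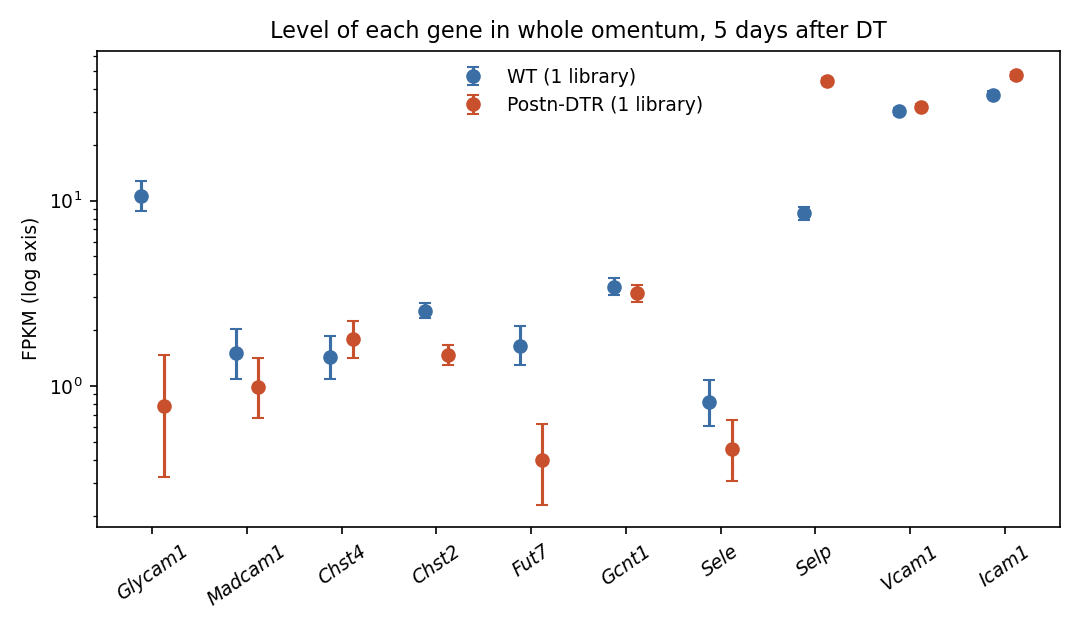
FPKM (log axis) of the 10 genes in the WT library (blue) and the Postn-DTR library (orange), with 95% counting intervals as bars and 1 library per point. Glycam1 (10.6 and 0.775) and Selp (8.55 and 44.3) stand furthest apart, and the points of Vcam1 (30.3 and 31.9) nearly coincide.

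In WT omentum the order of the levels was Icam1, Vcam1, Glycam1, Selp, Gcnt1, Chst2, Fut7, Madcam1, Chst4 and Sele. Glycam1 and Selp, Fut7 and Madcam1, and Madcam1 and Chst4 were neighbours whose counting intervals overlapped, and the other neighbours were separated. In Postn-DTR the order was Icam1, Selp, Vcam1, Gcnt1, Chst4, Chst2, Madcam1, Glycam1, Sele and Fut7. There the intervals of Icam1 and Selp overlapped, as did those of every pair of neighbours from Chst4 down to Fut7. Glycam1 thus went from the third place to the eighth, and Selp from the fourth to the second.

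**Figure D2:**
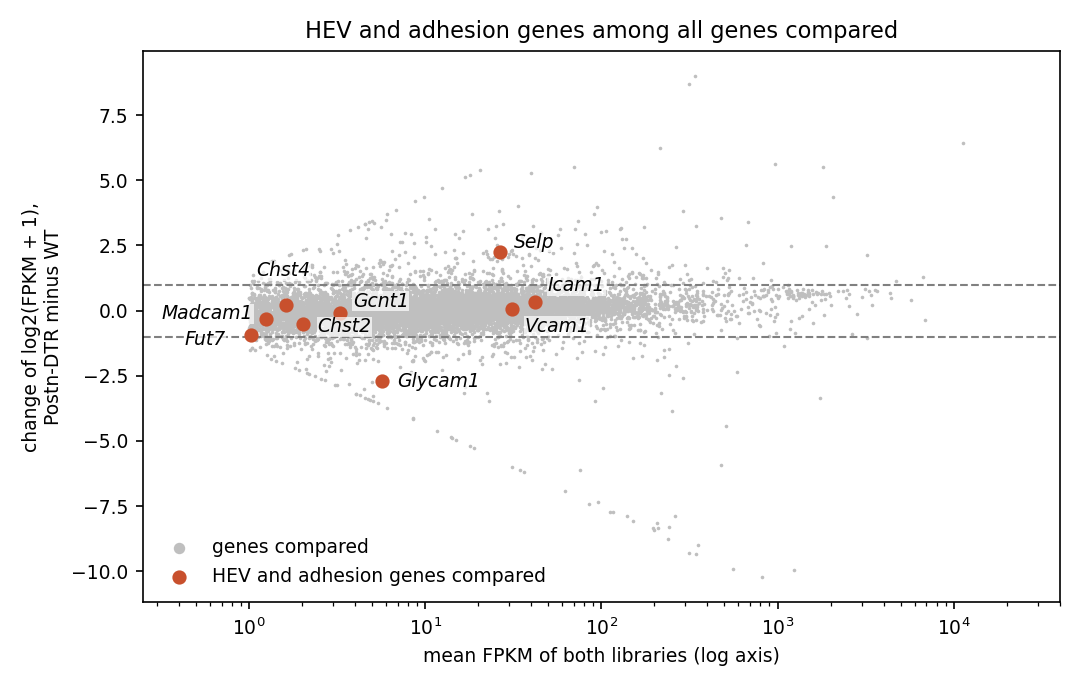
Change as defined above, in log2 units, against the mean FPKM of both libraries (log axis) for the 13127 genes compared (grey), with the 9 HEV and adhesion genes that were compared in orange and 2-fold marked by dashed lines. Glycam1 (-2.71) and Selp (2.25) lie outside the lines and Fut7 (-0.92) just inside the lower one.

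The HEV ligands were examined first. Glycam1 (ENSMUSG00000022491, chromosome 15, 103562759 to 103565081 on the minus strand, GRCm38) encodes a secreted mucin that carries sugar ligands of lymphocyte homing. It stood at 10.6 FPKM in the WT library and at 0.775 FPKM in the Postn-DTR library. This corresponded to about 110 and 8.29 reads with the principal coding transcript, or to 85.2 to 113 and 6.43 to 8.54 reads over its 3 annotated coding transcripts. The FPKM ratio was 13.7-fold lower in Postn-DTR, with a counting interval from 6.97 to 33.8. Its change of -2.71 was number 59 from the bottom among the 13127 genes, and it stayed negative under the 6 alternatives tried, from -3.62 to -1.44. Per 100 FPKM of Pecam1, a gene of all blood vessels that was at 109 and 110 FPKM, Glycam1 stood at 9.75 in WT and 0.708 in Postn-DTR.

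Marker genes of other tissues and cells were set beside Glycam1, and several differed between the libraries in the same direction. Glycam1 is also made by mammary epithelium, of which 6 of 6 milk protein genes were at or near 0, none above 0.162 FPKM in WT or 0.234 FPKM in Postn-DTR. The sum of 25 pancreatic acinar genes was 12498 FPKM in WT but 21.6 in Postn-DTR, so pancreatic RNA was abundant in the WT library alone. Among the acinar genes the elastase Cela2a (1628 and 0.351), the protease Ctrb1 (2490 and 1.51), the colipase Clps (1112 and 0.142) and the lipase Pnlip (693 and 0.0646) were furthest apart. Genes of follicular dendritic cells and B2 B cells were lower for 5 of 5 compared, with a median change of -1.23. Fcer2a, a receptor of IgE, was at 30.5 and 3.10, the complement receptor Cr2 at 5.25 and 0.573 and the B cell gene Ms4a1 at 56.8 and 23.6. Mfge8, the most abundant of them and also used by other cells, was at 177 and 113. The part of mammary epithelium, pancreatic tissue, follicular dendritic cells and B cells in the Glycam1 value was not tested.

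Madcam1 (ENSMUSG00000020310, chromosome 10, 79664559 to 79668537 on the plus strand) encodes the mucosal addressin, which binds the lymphocyte integrin α4β7. About 44.2 reads in WT and 29.8 in Postn-DTR gave levels of 1.51 and 0.988 FPKM. The ratio of 0.652 had a counting interval from 0.400 to 1.07, so a difference in Madcam1 was not detectable at this depth. Glycam1 and Madcam1 therefore had unequal ratios, and their intervals did not overlap. Of 4 other sialomucin scaffolds of HEVs and capillaries none reached 2-fold between the libraries, and Cd34, the most abundant, was at 236 and 243. Their changes ranged from -0.36 to 0.26.

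Fut7 (ENSMUSG00000036587, chromosome 2, 25423267 to 25426374 on the plus strand) encodes the fucosyltransferase that completes the sialyl Lewis X sugar of selectin ligands, in HEVs and in leukocytes. Its level was 1.65 FPKM in WT and 0.399 FPKM in the other library, the lowest of the 10 genes in that library. About 69.5 and 17.3 reads stood behind these values. By the FPKM ratio it was 4.14-fold lower, with a counting interval from 2.48 to 7.72. Counts by this measure were added after the data were seen. Its change of -0.92 was short of 2-fold and became -1.81 with a pseudocount of 0.1. Leukocytes also use Fut7, and 7 of 7 T cell markers were below 0 (median -1.08, summed FPKM 86.8 and 37.4). Among these the co-receptor Cd4 was at 11.3 and 3.41, Cd5 at 7.65 and 2.42, the kinase Lck at 20.3 and 8.37, Cd3e at 15.6 and 6.82 and Cd3g at 18.7 and 10.5. The list of follicular dendritic and B2 B cell genes also had a median below 0, at -1.23. Macrophage and neutrophil markers had medians above 0, at 1.70 and 0.83, though 3 of 8 neutrophil markers were below 0. The part of T cells and other leukocytes in the Fut7 value was not tested.

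The sulfotransferases Chst4 and Chst2 add the sulfate that rolling lymphocytes recognize, Chst4 mainly in HEVs and Chst2 more widely. Chst4 (ENSMUSG00000035930, chromosome 8, 110029153 to 110039740 on the minus strand) was at 1.43 FPKM in WT and at 1.80 FPKM in Postn-DTR, about 58.7 and 76.2 reads. Its ratio of 1.26 had an interval from 0.875 to 1.78, and its change of 0.20 became -0.0077 when pancreatic genes were removed and totals were made equal, the 1 alternative in which its sign turned. Chst2 (ENSMUSG00000033350, chromosome 9, 95399292 to 95406722 on the minus strand) was at 2.55 and 1.48, with about 425 and 254 reads on a long single coding transcript. It was 1.73-fold lower in Postn-DTR, with an interval from 1.48 to 2.03, and the change of -0.52 stayed negative under 6 alternatives. The sulfotransferases thus had ratios whose counting intervals did not overlap, with Chst2 the lower.

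Gcnt1 (ENSMUSG00000038843, chromosome 19, 17326141 to 17372844 on the minus strand) encodes the enzyme that starts the core 2 branch on which these sugars are built. Its levels were 3.44 FPKM (WT) and 3.17 FPKM (Postn-DTR), about 354 and 337 reads. The ratio of 0.921 had an interval from 0.791 to 1.07, which includes equality.

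**Figure D3:**
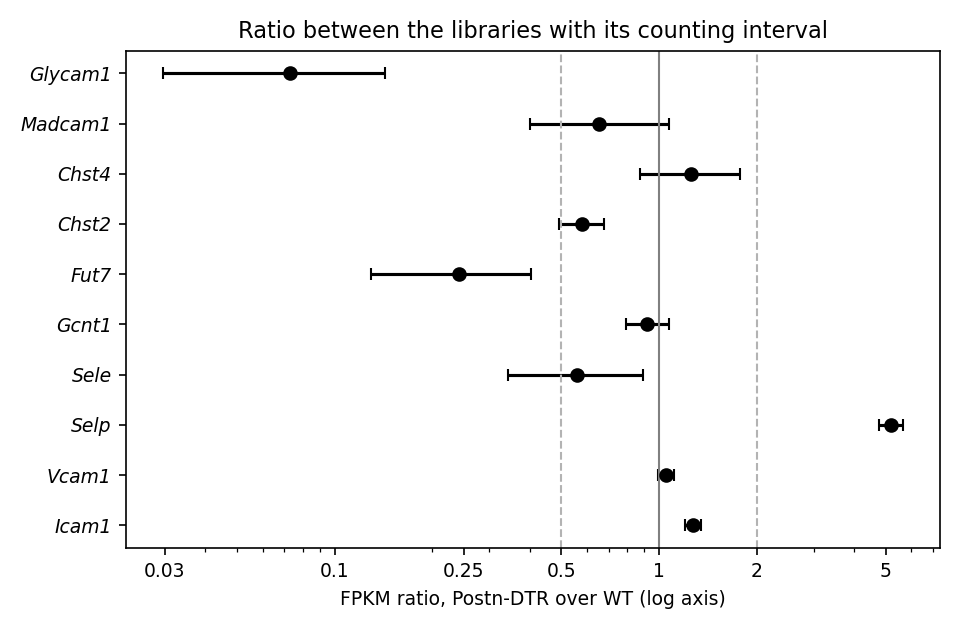
FPKM ratio of Postn-DTR over WT (log axis) for the 10 genes, with 95% counting intervals as bars, equality as the solid line and 2-fold as dashed lines. The intervals of Glycam1 and Fut7 lie below 0.5 and that of Selp above 2, while those of Madcam1, Chst4, Gcnt1 and Vcam1 include 1.

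Of the 12 other glycan enzymes compared, 2 were at least 2-fold lower and none higher, with a median change of -0.06. Both are sulfotransferases of the same family. Chst1, which sulfates galactose, was at 41.7 and 19.2, a change of -1.08. Chst3, a chondroitin sulfotransferase, was at 6.98 and 2.67, a change of -1.12. The most abundant by the mean of both libraries, B4galt1, a galactosyltransferase used by most cells, was at 41.8 and 58.5. Fut4, the other fucosyltransferase of selectin ligands, chosen after its values were seen, was at 2.48 and 1.38, a change of -0.55.

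The endothelial selectins differed in opposite directions. Selp (ENSMUSG00000026580, chromosome 1, 164115264 to 164150026 on the plus strand) encodes P-selectin, which endothelium stores with von Willebrand factor and platelets store in their granules. WT omentum held 8.55 FPKM and Postn-DTR omentum 44.3 FPKM, about 648 and 3473 reads. The ratio was 5.18, with a counting interval from 4.76 to 5.64. Its change of 2.25 was number 101 from the top among the genes compared and lay between 1.86 and 2.36 under the 6 alternatives. Sele (ENSMUSG00000026582, chromosome 1, 164048234 to 164057677 on the plus strand) encodes E-selectin, which cytokines induce on endothelium. It was at 0.823 and 0.459, under the expression minimum, with about 52.3 and 30.2 reads. The ratio of 0.558, with an interval from 0.344 to 0.891, lay below 1, and so on the other side from that of Selp. Within WT the FPKM of Selp was 10.4 times that of Sele, and within Postn-DTR 96.4 times.

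Sele and Selp both lie on chromosome 1. The next gene after Selp is F5, which starts 1.81 kb further on, encodes coagulation factor V and was at 2.56 and 19.0. Selp and its neighbour F5 thus both had higher values in Postn-DTR. An annotated gene on the opposite strand of Selp, Gm16548, was at 1.73 and 9.38, a ratio of 5.41. The library kit keeps strand, but how strand was used in counting is not given in the sources used here, so reads of Selp and Gm16548 may not be separated. The same limit holds for Vcam1 and Icam1, which overlap Gm43109 and Gm47079 on the opposite strand by 1238 and 511 bases.

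Markers of the cell types that use Selp were set beside it. The 12 blood endothelial identity genes had a median change of 0.01, with none at 2-fold, a lowest change of -0.68 and a highest of 0.48. Vwf, which encodes the factor stored with P-selectin and was chosen after its values were seen, was at 23.9 and 32.3. Of 9 platelet and megakaryocyte markers 5 were compared and these were above 0, with a median of 0.93. Clec1b was at 0.266 and 5.54, Treml1 at 2.40 and 10.2, and Pf4 at 147 and 281. Ppbp and Itga2b, the other genes compared, had ratios of 1.93 and 1.59. The 4 markers not compared lay under the expression minimum. Of these, Gp9 was at 0.282 and 0.545, Gp1ba at 0.221 and 0.640 and Gp1bb at 0.325 and 0.585. These values too were higher in Postn-DTR, whereas Gp6 was at 0 in both libraries. The whole list had a summed FPKM of 153.0 against 302, of which Pf4 alone made up 147 and 281.

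Macrophage genes were also higher in Postn-DTR. Of 6 macrophage markers 4 were at least 2-fold higher, and the median was 1.70. Cd14, a receptor of endotoxin, was at 33.6 and 230.1, the integrin chain Itgam at 46.8 and 252, Adgre1 at 41.1 and 138, Cd68 at 114 and 369 and the lysozyme gene Lyz2 at 2459 and 3563. Peritoneal macrophages are known to use Selp and F5, so 10 genes of resident peritoneal macrophages were added after the data had been seen. F5 is itself 1 of these genes and its higher value helped to prompt the list, so the counts that follow in part restate that value. Of these 8 were at least 2-fold higher, 10 were above 0, and their summed FPKM was 198 against 1356. Prg4 was at 38.0 and 545, F10 at 3.08 and 64.5, Alox15 at 33.1 and 317 and Thbs1 at 21.8 and 190. The genes short of 2-fold were Gata6, a transcription factor of these cells, at 18.6 and 33.1, and Timd4, at 29.6 and 39.2. The part of endothelium, platelets and macrophages in the Selp value was not tested.

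**Figure D4:**
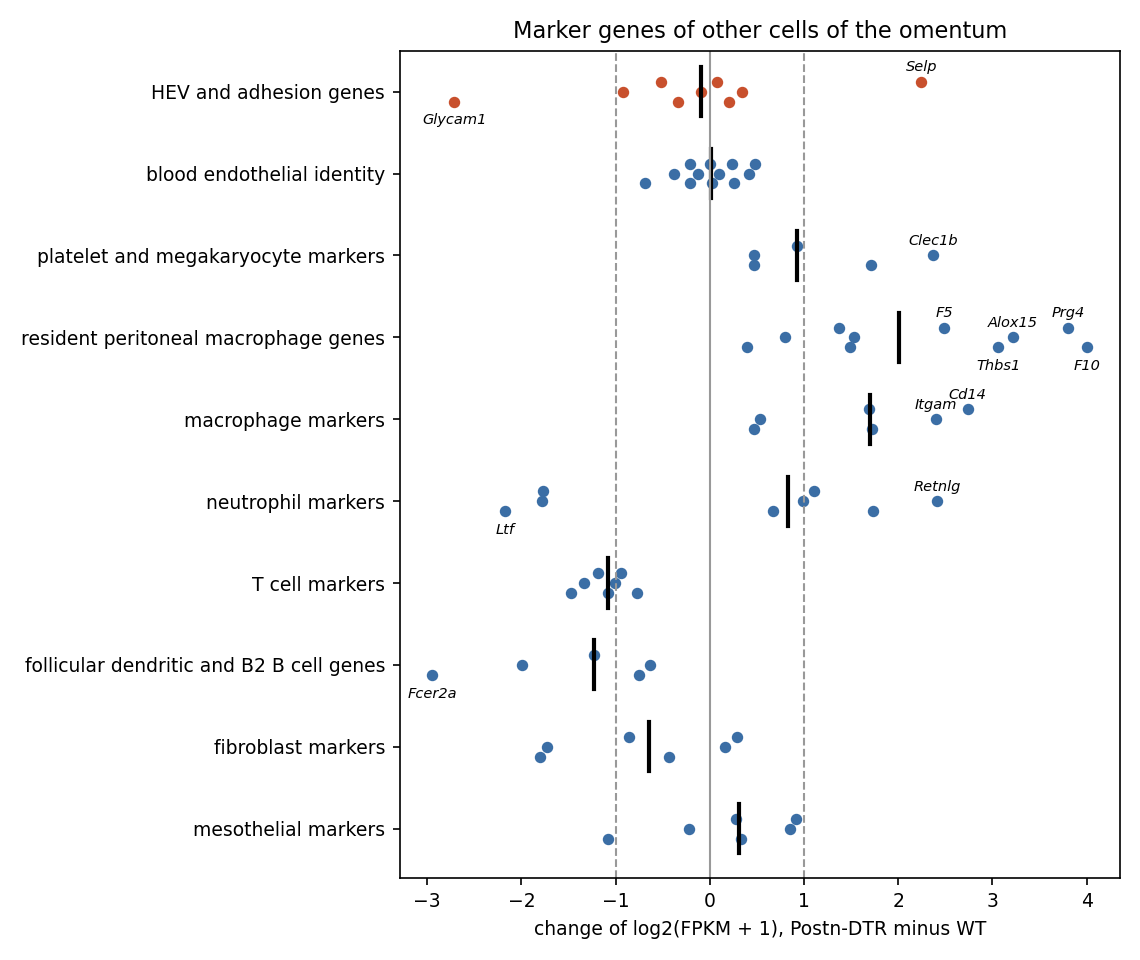
Change as defined above, in log2 units, for the genes compared in each list, with 1 point per gene, the list's median as a black line and 2-fold as dashed lines (genes with changes of at least 2 in size are named). The endothelial genes gather around 0.01. The medians of the platelet, peritoneal macrophage, macrophage, neutrophil and mesothelial lists lie to the right of 0. Those of the T cell, B2 B cell and fibroblast lists lie to the left. Glycam1 and Selp lie at opposite ends of their own list.

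The adhesion molecules Vcam1 and Icam1 were the most abundant of the 10 genes in WT, and neither reached 1.5-fold between the libraries. Vcam1 (ENSMUSG00000027962, chromosome 3, 116109949 to 116129688 on the minus strand) encodes the ligand of the integrin α4β1 and is used by activated endothelium, FRCs and some macrophages. With about 2316 and 2525 reads, its level was 30.3 FPKM in the WT library and 31.9 in the other. The ratio of 1.05 had an interval from 0.996 to 1.12, and the change of 0.07 turned to -0.0014 with scaling to the 75th percentile and to -0.26 at equal totals without pancreatic genes. Icam1 (ENSMUSG00000037405, chromosome 9, 21015985 to 21028817 on the plus strand) encodes the ligand of the leukocyte integrin LFA-1 and is induced by cytokines in many cells. It was the highest of the 10 genes in both libraries, at 37.2 and 47.3, about 2038 and 2678 reads. The ratio of 1.27, with an interval from 1.20 to 1.35, was above 1, but the change of 0.34 became 0.0028 at equal totals without pancreatic genes.

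Cells other than endothelium that use Vcam1 and Icam1 were compared as lists. Of 6 fibroblast markers 2 were at least 2-fold lower, Dpt (237 and 67.3) and Ccl19 (61.1 and 17.8), and the median was -0.64. Col3a1, a fibrillar collagen gene and the most abundant of them, was at 1264 and 699. For Ccl19, quantitative PCR in the paper, with several mice per genotype, found comparable levels in both genotypes. Of 6 mesothelial markers 1 was lower, Lrrn4 (62.7 and 29.2), and the median was 0.30, with Upk3b at 212 and 182. Neutrophil markers differed in both directions, with 3 of 8 lower, 3 higher and a median of 0.83. The granule genes Ltf (12.4 and 1.98), Ngp (48.0 and 13.2) and Camp (33.1 and 8.98) were lower, whereas Retnlg was at 12.8 and 72.6 and S100a8 at 170 and 339. Their part in the Vcam1 and Icam1 values was not tested.

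Of 10 other junction and adhesion proteins none reached 2-fold, with a median of -0.04 and changes from -0.63 to 0.74. Pecam1, which guides leukocytes between endothelial cells, was the most abundant. Icam2, the member with the highest change, chosen after its values were seen, was at 34.3 and 58.0. It is used by endothelium and, like Selp, by peritoneal macrophages.

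The other genes of HEVs and venules were higher for 5 of 6, with a median of 0.28. The 1 gene past 2-fold was Sphk1, a kinase that makes sphingosine 1-phosphate, at 3.79 and 22.0. Enpp2, which encodes the lysophosphatidic acid-producing enzyme autotaxin of HEVs and fat, was the most abundant and was at 598 and 360, a change of -0.73. Ackr1, the chemokine-binding receptor of venules, was chosen after its values were seen and was at 29.4 and 37.8.

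**Figure D5:**
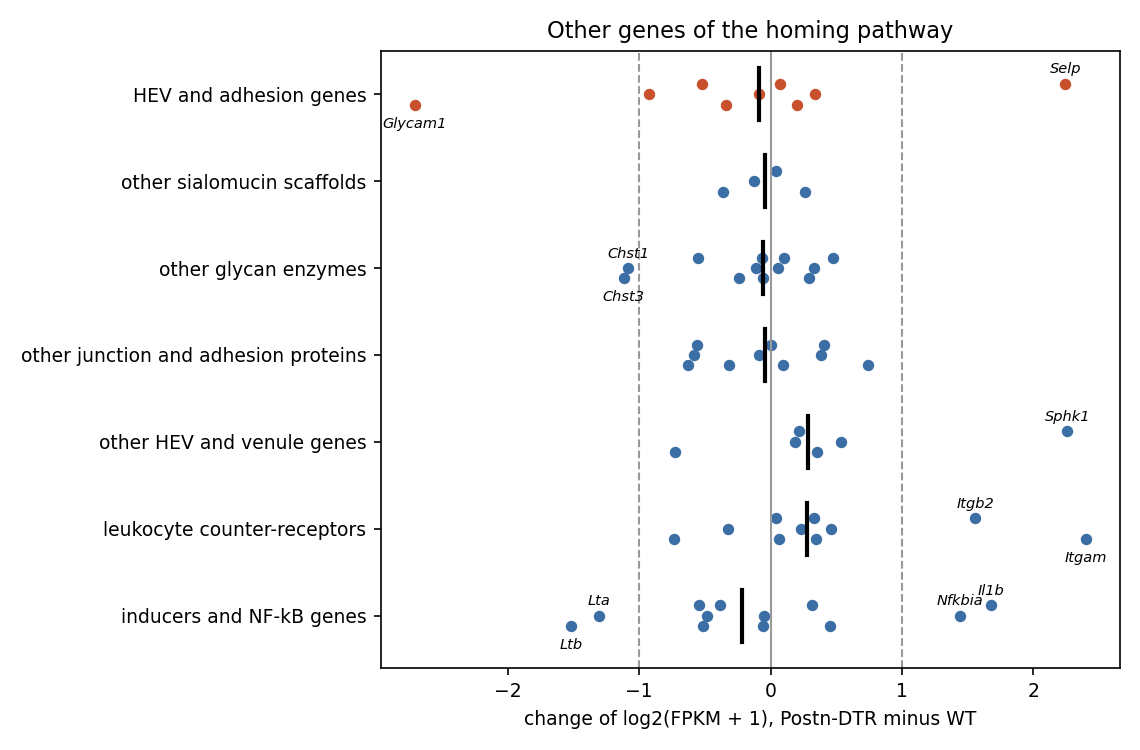
Change as defined above, in log2 units, for the HEV and adhesion genes compared (orange) and the 54 other genes of the pathway in 6 lists (blue), with the median of each list as a black line and 2-fold as dashed lines. Genes past 2-fold are named, and 4 of the 54 lie on the lower side and 5 on the higher.

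Receptors on the leukocyte side were compared next. Of 10 counter-receptors none was at least 2-fold lower and 2 were higher, with a median of 0.28. Both belong to the integrin Mac-1 of myeloid cells, a receptor of ICAM-1. Itgam was at 46.8 and 252, and Itgb2, the most abundant by the mean of both libraries, at 96.5 and 286. Itgal, the partner of Itgb2 in LFA-1 of lymphocytes, chosen after its values were seen, was at 23.6 and 13.8. For the partners of MAdCAM-1 and VCAM-1, chosen in the same way, Itga4 was at 9.72 and 12.6, Itgb7 at 41.1 and 43.0 and Itgb1 at 142 and 178. Selplg, the ligand of P-selectin, was at 61.2 and 84.7.

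The last list held cytokines that induce HEV and adhesion genes, their receptors, and NF-kB genes. Lymphotoxin from lymphocytes is known to keep HEVs mature, but its part in the values of the HEV genes was not tested. Both of its genes were lower. Ltb was at 69.3 and 23.6, a change of -1.52, and Lta at 5.74 and 1.72, a change of -1.31. Il1b, an inflammatory cytokine, was higher, at 1.87 and 8.19, as was Nfkbia, which encodes an NF-kB inhibitor that NF-kB itself induces and was the most abundant by the mean of both libraries, at 87.6 and 240.0. Over these 12 genes 2 were lower and 2 higher, with a median of -0.22. Over all 54 genes of the pathway 4 were at least 2-fold lower and 5 at least 2-fold higher, with a median change of 0.04, beside 3.12% and 3.88% of all genes.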

How the data were processed

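RNA-seq values of the whole omentum from 1 WT and 1 Postn-DTR library were used, both 5 days after DT. Per the labels, miRNeasy-purified RNA was made into stranded TruSeq mRNA libraries. The authors deposited FPKM, with 1 value per gene symbol. The submitters' processing notes name TopHat2 2.1.1, Bowtie2 2.2.8, SAMtools 0.1.18, Cuffdiff 2.2.1 and mm10; the annotation is not given in the sources used here. Samples were grouped by genotype label.

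Changes of log2(FPKM + 1) were computed in Python 3.11.15 for the 13127 genes whose mean FPKM was 1 or more. Positions came from GENCODE M21 (GRCm38), which matched 23310 of 24346 symbols. Among 723 genes under 0.1 FPKM in both libraries, 174 had a ratio of 0.967, which gave the ratio of the FPKM denominators. Genes with 1 transcript gave the denominators, with 184 bases taken off each transcript; 72.8% of 757 low values then lay within 0.05 of a whole read, where an even spread would give 10%. Read numbers rest on annotated lengths and are approximate. Intervals are exact (Poisson for levels, binomial for ratios). The steps were tested on simulated data. Alternatives were other pseudocounts, minimums and fold thresholds, centring on all or on endothelial genes, and other scalings.

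The members and lists were chosen with earlier results of these data known. Named were the 10 genes and, per list, up to 4 genes past 2-fold and the most abundant one; others were chosen after their values were seen.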

Additional observations from a re-analysis of the deposited data

How the results depend on the processing

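Selp was the 1 gene of the set past the threshold on the higher side under each alternative. For the lower side, the count of 1 (Glycam1) became 2 (with Fut7) under a pseudocount of 0.1, a 1.5-fold threshold or the FPKM ratio (added after the data were seen), and 0 when the minimum was raised to 10 FPKM, which removed Glycam1. The median change of the set became -0.21 with no minimum, 0.34 with a minimum of 10 and -0.30 with pancreatic genes removed and totals made equal (equal totals below). Equal totals also moved the median of the pathway genes to -0.30 and of the endothelial genes to -0.33. Lower pathway genes became 7 at 1.5-fold, 0 at 3-fold, 2 with a minimum of 10 and 1 with a pseudocount of 5, and higher ones 3 at 3-fold. Over all genes, 410 lower and 509 higher became 1160 and 1294 at 1.5-fold, 153 and 199 at 3-fold, 173 and 303 with a minimum of 10, 168 and 287 with a pseudocount of 5, and 735 and 294 at equal totals. Lower genes were 643 with a pseudocount of 0.1 and 682 by the FPKM ratio. Fewer genes pass stricter minimums and thresholds by construction. Equal totals changed the genes and the scaling together, and these steps were not run apart. The acinar genes summed to 12498 of 542190 FPKM in WT and to 21.6 of 671882 FPKM in Postn-DTR. They were thus a small part of either total, and the totals of the other genes differed too. Of 60 values of single genes under alternatives 53 lay no further from the reported change than the counting interval of the log2 ratio reaches from that ratio, and 7 lay further. No paired analysis was possible because there was 1 library per genotype. Depth limits Glycam1, Madcam1, Chst4, Fut7 and Sele most.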
